A study of Drosophila melanogaster with 3 samples.

Results

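Of the 7769 peaks that D19A-eGFP gave in Drosophila melanogaster embryos, 1563 had their summit inside an intron at an intermediate distance from a transcription start site (TSS). They were taken from the list that passed the authors' irreproducible discovery rate (IDR) procedure, a filter on how well peaks rank alike between replicates. A peak was a member if its summit lay inside a gene but in no exon and more than 1 kb and at most 5 kb from the nearest TSS of any gene. The rule used positions only, and the members made up 20.1% of the IDR list (95% Wilson interval 19.2 to 21.02%). The data are chromatin immunoprecipitation and sequencing (ChIP-seq) peaks from whole embryos aged 0 to 20 h, male and female pooled, of a transgenic line that stably expresses D19A with GFP fused to its C-terminus. An anti-GFP antibody was used according to the sample descriptions, while the antibody entry of the same labels reads D19A. There were 3 biological replicates of this single group, which share 1 control file, and no other genotype, treatment or age was compared. The embryos mix many cell types and ages, so a peak cannot be traced to a tissue or an hour of development, and the labels do not say at what level the tagged protein is expressed.

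Introns of Drosophila genes, and long first introns above all, are known to hold many of the enhancers that set when and where genes are transcribed. D19A belongs to the large insect family of zinc finger proteins that join a ZAD domain at the N-terminus to an array of C2H2 zinc fingers, and such arrays bind DNA. A ChIP-seq peak marks DNA recovered with the tagged protein, through direct contact or through other proteins, and does not by itself show an effect on a gene.

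The sequences under 4 of the 5 strongest members are shown because a high share of A and T at the summit was a common property of the class. Each is a summit with 50 bp to either side, read on the plus strand of the dm6 arms from the RefSeq assembly, with every run of 8 or more A or T in capitals. The windows are chrX:1943775-1943875 in Hr4, chr3R:16969990-16970090 in Abd-B, chr3L:295188-295288 in RhoGEF3 and chr3L:18003493-18003593 in Eip75B.
Hr4: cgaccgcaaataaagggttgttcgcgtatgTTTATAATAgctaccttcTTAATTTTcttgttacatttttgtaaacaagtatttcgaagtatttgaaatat
Abd-B: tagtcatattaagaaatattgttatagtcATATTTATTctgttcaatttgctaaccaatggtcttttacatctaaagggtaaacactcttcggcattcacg
RhoGEF3: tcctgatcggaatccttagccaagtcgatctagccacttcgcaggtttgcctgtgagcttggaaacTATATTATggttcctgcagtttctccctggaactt
Eip75B: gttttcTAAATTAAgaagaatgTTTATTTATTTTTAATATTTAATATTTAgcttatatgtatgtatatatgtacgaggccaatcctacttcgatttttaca
The window of Eip75B was 78.2% A or T, with an unbroken A or T run of 28 bases, while that of RhoGEF3, the fourth strongest member, was 52.5% A or T. A pair of members from the bottom of the list is shown for contrast, chr3L:9466620-9466720 in CG44838 at rank 7758 and chr3L:21054846-21054946 in siz at rank 7764, with 71.3% and 56.4% A or T.
CG44838: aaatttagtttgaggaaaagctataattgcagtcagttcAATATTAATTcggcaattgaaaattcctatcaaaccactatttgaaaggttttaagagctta
siz: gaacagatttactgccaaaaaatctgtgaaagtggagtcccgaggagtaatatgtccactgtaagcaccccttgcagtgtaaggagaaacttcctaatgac
A second feature, unrelated to A and T runs, was a 7-base sequence, AGGGTAT, chosen after the members' sequences had been inspected. It stood in the summit windows of the members in raw (chr2L:8738299-8738399), Tlk (chrX:3743577-3743677), S6KL (chrX:18800291-18800391) and sick (chr2L:19894992-19895092), 4 of the strongest members with it. Here the capitals mark AGGGTAT or its reverse complement ATACCCT.
raw: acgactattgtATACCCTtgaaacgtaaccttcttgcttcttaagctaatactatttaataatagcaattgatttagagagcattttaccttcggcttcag
Tlk: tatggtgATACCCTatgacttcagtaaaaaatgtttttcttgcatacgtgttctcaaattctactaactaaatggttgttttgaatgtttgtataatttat
S6KL: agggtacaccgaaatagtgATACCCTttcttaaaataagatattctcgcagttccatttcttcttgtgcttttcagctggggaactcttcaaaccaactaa
sick: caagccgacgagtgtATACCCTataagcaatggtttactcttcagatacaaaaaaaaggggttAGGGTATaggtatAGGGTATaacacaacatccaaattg
The window in sick held it 3 times, on both strands.

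Intronic summits 1 to 5 kb from a TSS were denser than those deeper in introns and sparser than those nearer to a TSS. The rule can be met by 20.1 Mb of sequence, in which the members had a density of 77.6 summits per Mb (exact 95% Poisson interval 73.8 to 81.6, for the counting of peaks only). Introns more than 5 kb from every TSS held 38.0 summits per Mb, and intergenic sequence more than 1 kb from a TSS held 37.5. Non-exonic sequence 250 to 1000 bp from a TSS had 133 per Mb, sequence within 250 bp of a TSS had 201.3 per Mb, and exons outside that distance had 11.7. To measure the spread, the same count was made on the 7769 peaks of highest signal in each replicate list, a list as long as the IDR list. The ratio of the member density to that of deep introns was 2.06, 2.02 and 2.12 in replicates 1, 2 and 3, a mean of 2.06 ± 0.0482 (SD, n = 3). It was above 1 in 3 of 3 replicates, with p = 0.25 in a 2-sided exact permutation test that flips the sign of each replicate. This is the smallest p that 3 replicates allow, so no comparison over replicates could pass a threshold of 0.05, and the tests below give the size, the direction and the spread.

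**Figure D1:**
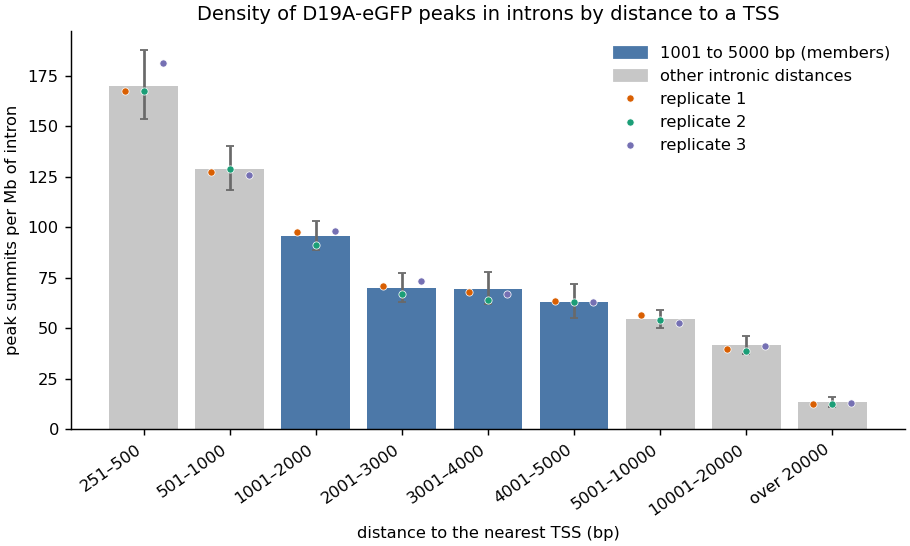
Summits of the IDR list per Mb of intron (bars, with exact 95% Poisson intervals) against distance to the nearest TSS, with the equally long list of each replicate as points; members in blue, other intronic distances in grey. Density was 95.7 per Mb at 1 to 2 kb and 63.1 at 4 to 5 kb, inside a decline that ran from 169.8 at 250 to 500 bp to 13.4 beyond 20 kb.

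Within the class, density declined with distance without a step at either limit. It was 95.7 per Mb at 1 to 2 kb, 69.7 at 2 to 3 kb, 69.6 at 3 to 4 kb and 63.1 at 4 to 5 kb. The intervals of the last 3 bins overlap one another, and only the first stood clear of them. The 100 bp just inside the lower limit held 111 summits or 138 per Mb, and the 100 bp just outside it 116 summits or 139 per Mb. At the upper limit, the 100 bp inside held 19 summits (59.0 per Mb) and the 100 bp outside held 23 (72.4 per Mb). The class is therefore a stretch of a gradient with limits set by the rule.

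Members lay in first introns more often than the amount of sequence there would give. Of the 1563, 1110 (71%) had their summit in the first intron of at least 1 annotated transcript, which covers 54.8% of the sequence that meets the rule. The density was 100.6 summits per Mb in first introns and 49.8 per Mb in the remaining sequence. In the replicate lists the ratio of these densities was 2.05, 1.98 and 2.05, a mean of 2.03 ± 0.0395 (SD, n = 3), above 1 in 3 of 3 replicates (exact permutation p = 0.25, 2-sided). First introns hold more of the sequence close to a TSS, so the ratio was also taken at fixed distance. It was 2.43 at 1 to 2 kb, 1.85 at 2 to 3 kb, 2.02 at 3 to 4 kb and 1.31 at 4 to 5 kb in the IDR list. The replicate means of these ratios, 2.45 ± 0.0934, 1.86 ± 0.0593, 1.94 ± 0.106 and 1.35 ± 0.0353 (SD, n = 3 each), put the first bin above and the last bin below the others by more than their spread.

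For most members the nearest TSS was a start site of the gene that contains them. The nearest TSS belonged to the host gene and lay upstream of the summit for 902 members (57.7%), a position that makes up 50.2% of the eligible sequence. For 294 members (18.8%, against 13.4% of the sequence) the nearest TSS was a host start that lies downstream of the summit, as when a gene has alternative promoters. The nearest TSS was that of another gene for the remaining 151 summits downstream of it (9.66%, against 15.9% of the sequence) and 216 summits upstream of it (13.8%, against 20.5%). In the replicate lists these shares had SDs of 0.353 to 0.509 percentage points, smaller than each gap to the share of sequence, which is a comparison of positions and not of regulation.

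Exon-free stretches of all lengths held members. Density was 71.1 per Mb in stretches of up to 5 kb, 85.5 in those of 5 to 10 kb, 84.3 in those of 10 to 20 kb and 74.7 in longer ones. Among the 5 long arms it ran between 71.2 per Mb on 2L and 81.7 on 3L, with 18 members and 67.4 per Mb (interval 39.9 to 107) on the small chromosome 4, where the replicates spread most (74.9 ± 20.8, SD, n = 3). Annotated transposable elements held 19 members at 19.4 per Mb. How well reads could be placed in such repeats is not given in the sources used here, and its part in this low value was not tested. Another IDR summit lay within 1 kb of 30.5% of members and 19.1% of deep intronic peaks. It did so for 23.3% of promoter, 23.9% of intergenic, 30.3% of exonic and 34.0% of non-exonic peaks 250 to 1000 bp from a TSS. Further summits of the same interval were counted, as in bon, where the nearest one lay 210 bp away. The shares therefore do not count separate sites, and the part of such summits in the differences was not tested. In the replicate lists the members' share exceeded that of deep introns by 8.61, 10.4 and 4.29 percentage points, a mean of 7.77 ± 3.14 (SD, n = 3), again in 3 of 3 replicates (exact permutation p = 0.25, 2-sided). The members' share minus that of the non-exonic peaks 250 to 1000 bp from a TSS was -6.59, -5.61 and -7.71 points (mean -6.64 ± 1.05, SD, n = 3; exact permutation p = 0.25, 2-sided), and against exonic peaks the sign differed between replicates (mean -2.74 ± 4.78, SD, n = 3; exact permutation p = 0.5, 2-sided).

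The strongest member, in an intron of Pli, ranked 5th by the signal value the authors deposited among all IDR peaks and stood at rank 4, 5 and 4 in replicates 1, 2 and 3. Pli encodes Pellino, a ubiquitin ligase that acts on Toll signalling. Its interval was also the widest of the class at 2366 bp, with the summit 2849 bp downstream of a Pli TSS. The second, in the first intron of the nuclear receptor gene Hr4, whose product acts in the response to the moulting hormone ecdysone, ranked 26, 27 and 27. The third lay in the first intron of Abd-B, the posterior Hox gene of the bithorax complex, 1466 bp from an alternative start, and ranked 36, 37 and 44. RhoGEF3 followed at 41, 48 and 37, and Eip75B, an ecdysone-induced nuclear receptor gene, at 54, 62 and 57. Signal values in the class ran from 32878 at Pli to 256.396 at the lowest member, with a median of 486.7.

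The remaining 20 of the 25 strongest members lay in the following genes. PRAS40, an inhibitor of TOR complex 1, ranked 62, 54 and 56 in replicates 1, 2 and 3. Transcription factors and cofactors of this group were ush, the FOG-type partner of GATA factors, bowl, sd, the DNA-binding partner of Yorkie in Hippo signalling, Trl, which encodes GAGA factor, apt, and kay, the Fos subunit of AP-1. Genes of adhesion and cell shape were ena, an actin regulator, kek5, Sdc, which encodes the proteoglycan syndecan, and raw, which restrains JNK signalling during dorsal closure. The kinase gene Tlk held 2 of the 25, and atos, CG11050, Ypel, CG13506, CG32772, MFS3 and CG10939 were the other hosts. Of the 25, 19 had a summit in a first intron and 22 were nearest to a start site of their own host. The exceptions were the members in ush, nearest to cbt, in ena, nearest to lncRNA:CR43399, and in kay, nearest to lncRNA:CR46110. All 25 had rank 315 or better in every replicate, and 18 of them rank 200 or better.

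**Figure D2:**
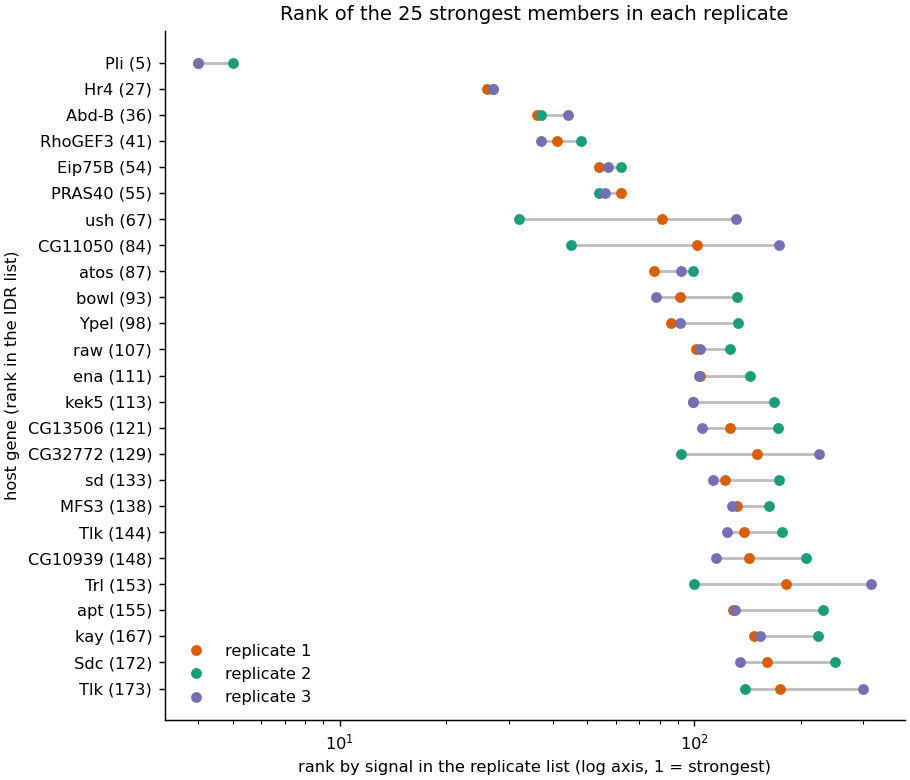
Rank by signal in each replicate list (log axis, 1 is the strongest of 30000 peaks) for the 25 strongest members, ordered by rank in the IDR list, which stands in brackets after the host gene. Pli stood at 4 or 5 in each replicate, and ush, CG11050, CG32772, Trl and a Tlk member spread widely, with replicate 2 giving the best rank and replicate 3 the poorest.

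The ranks of strong members fell into 2 patterns that differed between replicates 2 and 3. The member in Trl ranked 182, 100 and 315 in replicates 1, 2 and 3, that in ush 81, 32 and 131, that in CG11050 102, 45 and 173, and that in CG32772 150, 92 and 225. The member in Sdc ranked 160, 249 and 135, that in CG10939 143, 207 and 115, and that in bowl 91, 132 and 78. Of the 25, 7 ranked better in replicate 2 than in replicate 3 and 17 ranked better in replicate 3. Over the 369 members among the strongest 1943 peaks of the IDR list, 200 ranked better in replicate 2 and 168 in replicate 3. Peaks that ranked better in 1 of these replicates were also counted in the other classes, without examining how many stood in between. Of the promoter peaks among the same strongest peaks, 341 ranked better in replicate 2 and 176 in replicate 3. Exonic peaks and non-exonic peaks 250 to 1000 bp from a TSS leaned the same way. Deep intronic peaks leaned the other way, with 84 and 133, as did intergenic peaks. Only 32 of the 369 had ranks within a factor of 1.2 of each other, so few stood in between. Among the 1533 members with a peak in both lists, 265 had ranks that close, and the patterns ran into each other at lower signal.

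The patterns also differed in sequence. Among those 369, AGGGTAT stood in the summit window of 32 of the 168 members that ranked better in replicate 3 (19%, Wilson interval 13.8 to 25.7%) and of 5 of the 200 that ranked better in replicate 2 (2.50%, 1.07 to 5.72%). In windows of 100 bp to either side of the summit the counts were 67 (39.9%) and 11 (5.50%). Over all members with both ranks the shares were 14.1% of 715 members and 3.06% of 817 members. Members better in replicate 2 had more A or T, 71.9% against 68.1% among the 369, and more often held TAATTA, a core recognised by many homeodomain proteins, in 22% against 11.9%. The shares of TAATTA lay the other way in strong deep intronic peaks (10.7% of those better in replicate 2 and 12.8% of those better in replicate 3) and intergenic peaks (14.9% and 15.8%), and the same way in strong promoter peaks (15.8% and 11.4%), exonic peaks (6.98% and 2.70%) and non-exonic peaks 250 to 1000 bp from a TSS (12.4% and 10.7%). The direction seen for AGGGTAT appeared also in strong deep intronic peaks (14.3% of those better in replicate 3 and 3.57% of those better in replicate 2) and in strong promoter peaks (13.6% and 2.05%), so it was not confined to the members. The comparison was chosen after the ranks were seen, is between peaks and not between samples, and has no test. What distinguishes the libraries is not given by the labels, and their depth is unknown.

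**Figure D3:**
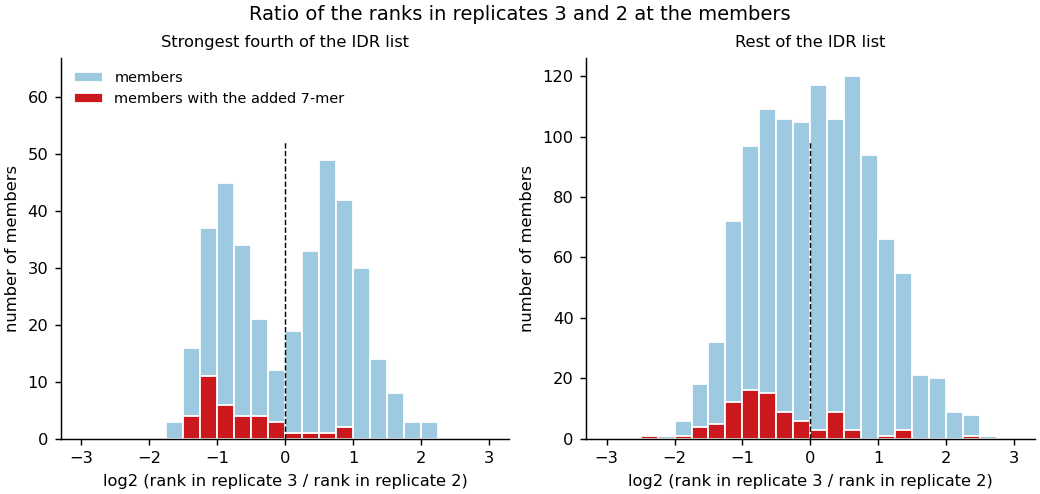
Number of members by the log2 ratio of the rank in replicate 3 to the rank in replicate 2, for the strongest 1943 peaks of the IDR list (left) and the rest (right), with members that hold AGGGTAT in the summit window in red; values above 0 are better in replicate 2. The left panel has a pair of maxima with few members between them, and 32 of its 37 members with the 7-base sequence lie below 0.

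Members were found again in the replicates about as often as other IDR peaks. A peak of the equally long top list of every replicate overlapped 1121 of the 1563 members, or 71.7% (Wilson interval 69.4 to 73.9%), where the background over the whole IDR list was 69.8%. For deep intronic peaks the share was 67.7%. Taken singly, replicates 1, 2 and 3 overlapped 90.3%, 90.02% and 82.5% of the members. The members' share exceeded that of deep introns by 1.80, 1.36 and 2.70 percentage points, a mean of 1.95 ± 0.685 (SD, n = 3; exact permutation p = 0.25, 2-sided). The overlap followed strength: it was 100% for members at ranks 1 to 1943 of the IDR list, 95.2% at ranks 1944 to 3885, 72.3% at ranks 3886 to 5827 and 18.6% at ranks 5828 to 7769. Over all IDR peaks the shares at the same ranks were 98.8%, 94.3%, 68.3% and 17.7%. In the full replicate lists of 30000 peaks, 1526 members (97.6%) had a peak in every replicate, as did 96.7% of all IDR peaks. Over members, Spearman's rank correlation between replicates was 0.87 for replicates 1 and 2, 0.85 for 1 and 3 and 0.73 for 2 and 3, as a description of peaks that share a control file. Summits of 1 interval can take the same replicate ranks and still count separately. For example, a Pli summit at rank 2269 of the IDR list also has ranks 4, 5 and 4. The IDR list was derived from these same replicate lists with a filter on ranks that are alike. The overlaps and rank correlations are therefore partly set by that filter and are not independent support. The part of the shared control in the overlap was not tested.

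Member peaks were seldom at the very top of the list. Their median rank was 3785 of 7769. Their median width, 444 bp, was that of the whole IDR list. Only 152 of the 1563 members were wider, so many had exactly this width, and equal medians say little about how the widths compare. They made up 11 of the 100 strongest IDR peaks, 79 of the strongest 500 (15.8%) and 369 of the strongest 1943 (18.99%). Among weaker pooled peaks that overlap no IDR peak the share was 22.5% (4526 of 20127). Within the replicate lists, the top 7769 held 20.0 ± 0.650% and the rest of the same list 21.8 ± 0.227% (SD, n = 3). The difference was -1.37, -2.81 and -1.23 percentage points in replicates 1, 2 and 3 (mean -1.80 ± 0.877, exact permutation p = 0.25, 2-sided).

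Members lay in 880 of the 6851 protein-coding genes that have any sequence meeting the rule, so 12.8% of eligible genes were hosts. A single member was found in 511 of them. The genes with most members were shn, a zinc finger cofactor of Dpp signalling, E2f1, a transcription factor of the cell cycle, and sick, each with 11, followed by the chromatin gene tou with 10. A further 7 genes tied at 9: px, ush, siz, CG1677, jing, RapGAP1 and Tlk. In the replicate lists E2f1 had 11, 11 and 11 members, shn 12, 11 and 10, tou 9, 8 and 9, and sick 9, 10 and 6, so E2f1 was constant and sick varied. Per kb of eligible intron tou held 0.578, E2f1 0.475, shn 0.364 and sick 0.184, since sick has 59887 bp of such sequence and tou 17309 bp. For 77 members the summit lay in more than 1 coding gene, and 27 lay in noncoding genes only.

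Genes with a member carried a peak at their own promoter more often than eligible genes without one. An IDR summit within 250 bp of a TSS of the gene was present for 352 of the 880 hosts (40.0%) and for 16.0% of the eligible genes without a member. The difference was 23.0, 22.2 and 25.8 percentage points in the replicate lists, a mean of 23.7 ± 1.89 (SD, n = 3), positive in 3 of 3 (exact permutation p = 0.25, 2-sided). Long genes have more room for members and often more start sites, so genes were split into 4 groups of equal size by eligible length. In the longest group the shares were 40.7% of hosts and 14.2% of genes without a member, and in the next 37.6% and 16.8%. The 2 groups of shortest length held 8 hosts in all. The split matches length only coarsely, since the longest group spans 3743 to 90174 bp of eligible sequence. It does not match the number of start sites, whose part in the difference was not tested.

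Host genes were also counted in 20 lists of developmental and cellular genes, against the 12.8% of all eligible coding genes. The share of hosts was above that background in 19 of the lists, with a median of 34.5%, but listed genes also had more eligible intron, a median of 4000 bp against 610 bp for all eligible genes. Counting members per Mb of eligible intron in each gene, all eligible genes had 78.1, the median of the lists was 142.6, and 17 lists lay above and 3 below. Some of these densities rest on few members, as few as 2 in the insulator protein list. Because the lists were chosen with earlier results of these data known, these counts are a description only. Genes of the cytoskeleton and cell junctions had members in 12 of 20 (128 per Mb), among them shot, crb, baz and scrib, which organise epithelial polarity and microtubules. Hox genes and their cofactors had them in 6 of 11 (Abd-B, Antp, Scr, Ubx, hth and lab; 98.9 per Mb). Axon guidance and adhesion genes had them in 11 of 22, at a density of 80.9 per Mb that was close to that of all genes. Their strongest was in the teneurin gene Ten-a, at ranks 186, 265 and 177 in replicates 1, 2 and 3.

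Genes of several signalling pathways held members. The EGF receptor and MAP kinase list had them in 9 of 21 genes with 21 members (158 per Mb), and its strongest lay in the kinase gene Raf, at ranks 362, 248 and 569. The Wingless list had 5 of 14 with 19 members, the Dpp and BMP list 5 of 12 with 19 members (220 per Mb), 11 of them in shn, and the Notch list 4 of 12. Hedgehog genes had 3 of 8 (boi, ci and ptc), the JAK-STAT list 2 of 7 (Socs36E and Stat92E), and the Toll list 2 of 7 (Pli and Tl). In the ecdysone and nuclear receptor list, 5 of 13 were hosts (EcR, Eip75B, Hr3, Hr4 and ftz-f1), with 17 members at 89.6 per Mb.

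Chromatin genes of the Polycomb and Trithorax list were hosts in 6 of 26 cases (Trl, kis, osa, ph-p, pho and trx), and 1 of 9 insulator protein genes, Trl, was a host. RNA processing genes were hosts in 8 of 17 (70.2 per Mb), with brat, a translational repressor, holding the strongest at ranks 288, 389 and 252. Genes of muscle were hosts in 6 of 19 (79.8 per Mb), those of lipid and sugar metabolism in 4 of 17, those of autophagy and the lysosome in 3 of 10, and segmentation genes in 3 of 17 (ci, nkd and ptc). The lowest densities were those of ion channel and synapse genes, 6 members in 5 of 20 genes or 35.2 per Mb, and of neural and glial transcription factors, 5 members in 4 of 10 or 57.8 per Mb. Numbers of hosts in a list differed by at most 4 between replicates. The lists overlap, for example in nkd, ci and ptc, and a count this small carries a wide interval: for 12 of 20 it is 38.7 to 78.1%.

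DNA at member summits was richer in A and T than DNA 200 bp away. The summit windows averaged 67.6% A or T, the flanking windows of the same peaks 57.4%, and all 178499 windows of the same length that tile the eligible introns 60.1%. The excess at the summit was 9.53, 11.3 and 7.996 percentage points in replicates 1, 2 and 3, a mean of 9.61 ± 1.65 (SD, n = 3; exact permutation p = 0.25, 2-sided). Among members, 456 (29.2%) exceeded 72.3% A or T, the 90th percentile of the tiles, where 8.82% of the tiles did. A run of at least 15 A or T, as in the Eip75B window shown above, was present in 20.0% of summit windows, 6.94% of flanks and 9.15% of tiles. The share followed strength, with 70.1% A or T in members at ranks 1 to 1943, 67.8%, 67.1% and 65.5% in the next groups of 1942. Among pooled peaks of the same positions that overlap no IDR peak the excess was 3.67 points.

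**Figure D4:**
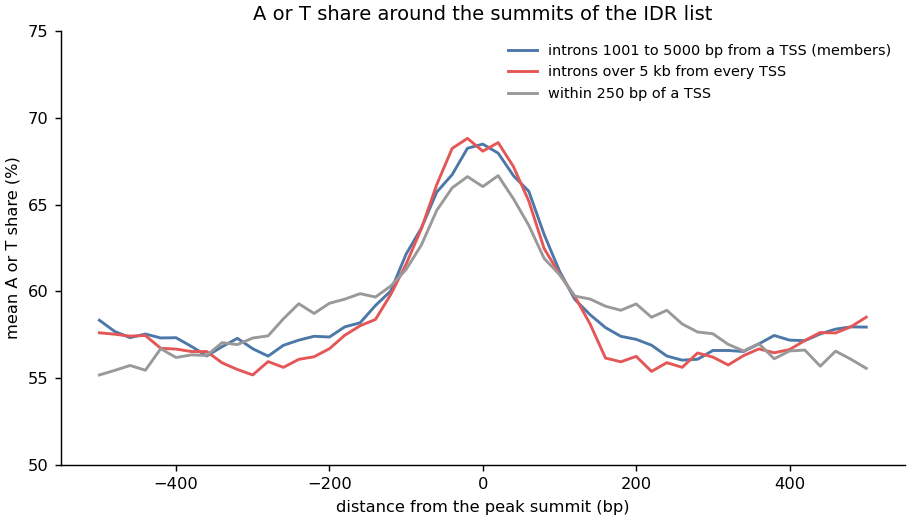
Mean A or T share in windows of 21 bp taken every 20 bp around the summits of the IDR list, for members, deep intronic peaks and peaks within 250 bp of a TSS; the vertical axis starts at 50%. Members and deep intronic peaks follow each other closely, and promoter peaks stand lower at the summit and higher at 200 bp to either side.

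The excess was not particular to members. In replicate lists the summit excess of members minus that of deep introns was -1.07, -1.201 and -0.395 points (mean -0.890 ± 0.434), and it exceeded that of promoter peaks by 2.61, 4.21 and 2.14 points (mean 2.98 ± 1.09; SD, n = 3, exact permutation p = 0.25 for both, 2-sided). Base composition can affect how well fragments are recovered and amplified, and its part was not tested.

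The 31 short sequences searched in the summit windows, on both strands, included the cores of factors known from embryos and promoters. In all 3 replicates 15 stood more often under summits than in the flanks and 11 less often, and no 2-sided exact permutation p was below 0.25, before or after adjustment over the 31. The largest excess in percentage points was that of the TATA-type sequence TATAAA, in 25.9% of summit windows, 11.6% of flanks and 13.4% of tiles. The homeodomain core TAATTA stood in 12.2%, 5.47% and 7.94%, and TTTTTTA, a sequence bound by Hunchback, in 13.9%, 6.88% and 8.07%. AGATAA, recognised by GATA factors, stood in 9.66%, 5.92% and 6.38%. All of these hold mostly A and T. AAAAAAAA, which holds nothing else, stood in 6.78% of summits and 6.78% of flanks. By ratio of summit to flank the largest excess was that of GCATACTT, from the Su(Hw) motif, at 16 members (1.02% against 0.256%). TATAAA stood in 25.9% of deep intronic summits (9.57% of flanks) and 26.1% of promoter summits (13.7% of flanks). For TAATTA these shares were 11.7% (4.79%) and 11.3% (6.47%), so neither excess was particular to members.

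GA and CA repeats were less frequent at summits than in flanks. GAGAG, the core bound by GAGA factor, stood in 8.70% of summit windows, 17.1% of flanks and 11.1% of tiles, and CACACACA in 1.15%, 4.25% and 2.67%. GAGAG was also rarer at deep intronic summits (9.01%, flanks 16.5%) and promoter summits (10.1%, flanks 14.7%). The longer GAGAGAGA contains GAGAG and stood in 0.320% of summit windows, 1.82% of flanks and 0.700% of tiles. TATCGATA, the DRE element, was found at 7 members (0.448%), in 0.128% of flanks, 0.213% of tiles and at 1.73% of promoter peaks. It contains CGATA, the core bound by BEAF-32, which stood in 11.2% of member summits, 11.4% of flanks, 10.7% of tiles and 16.8% of promoter summits. GGTCACAC, from the motif of M1BP, stood at 2 members (0.128%) and at 1.54% of promoter peaks. In the replicate lists the member share of TATCGATA was 0.407 ± 0.0624% and the promoter share 2.11 ± 0.495% (SD, n = 3; exact permutation p = 0.25, 2-sided).

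**Figure D5:**
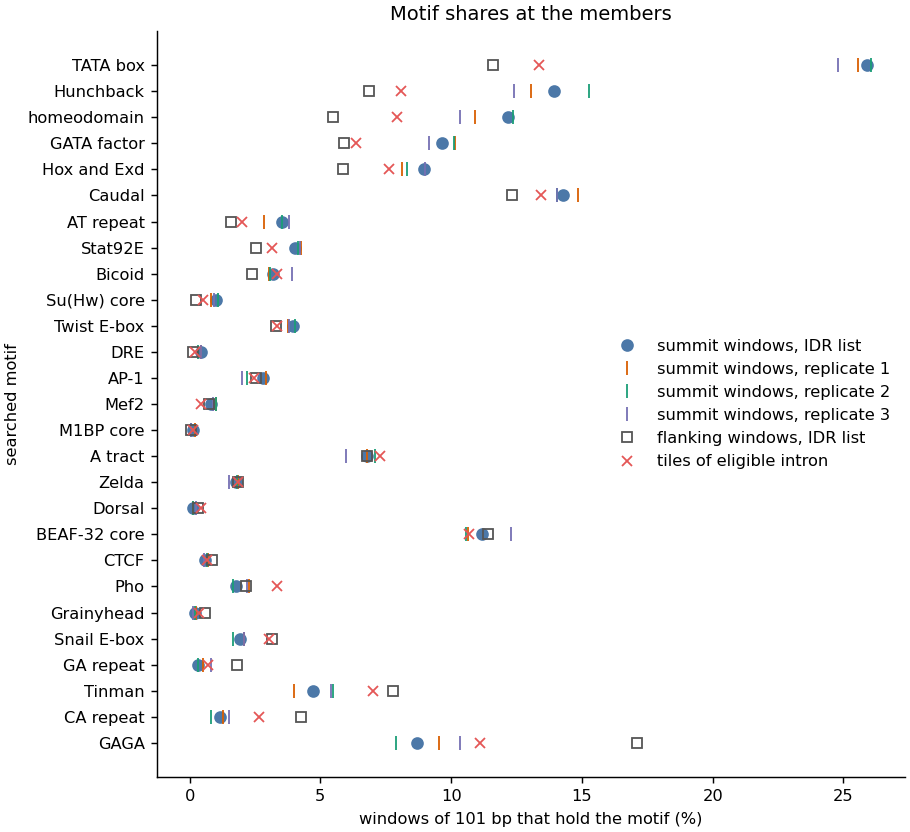
Share of windows that hold the searched sequences, for member summits in the IDR list (filled circles) and in each replicate (ticks), the flanks of the same peaks (squares) and the tiles of eligible intron (crosses), ordered by summit minus flank. CAGCTG, AAATATAT, ATTTAAAA and AATAATAT were searched but are not drawn. The TATA-type sequence lies at the top with 25.9% against 11.6% in flanks, and the GAGA core at the bottom with 8.70% against 17.1%.

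AGGGTAT, the sequence picked after the members had been inspected, stood in the summit windows of 128 members (8.19%), in 2.30% of flanks and in 1.04% of tiles. In the replicate lists it stood in 7.93%, 7.23% and 8.83% of summits. Since it was picked for its frequency at these summits, these values are a description. It stood in 8.18% of deep intronic summits and 3.47% of promoter summits. Members with it had less A or T, 63.5% against 68.0% in members without it, and a better median rank, 3158 against 3852. It stood in 7 of the 100 strongest members, 10.7% of the 391 strongest and 5.88% of the 391 weakest. Annotated transposable elements held 3 of the 128, and 19 of all 1563 members, and 8 windows held it more than once.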

How the data were processed

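ChIP-seq peaks were given for 3 libraries of 1 group. Coordinates are dm6 per the labels. Per the record files that accompany the libraries, the replicate and pooled lists came from the alignments and 1 shared control file, and the IDR list from the replicate and pooled lists. The aligner, the peak caller, its settings and the IDR threshold were not given in the sources used here. The authors deposited a signal value for each peak, with no stated normalization, which was used to rank peaks within a list. They also deposited a −log10 q-value for each peak, which has a ceiling and was not used to rank. The summit offset of each peak, in bp from the start of its interval, was likewise deposited by the authors. Read counts were not used here, so depth is unknown, and intervals (95%, Wilson for shares, exact Poisson for densities) cover the counting of peaks only. The replicates are labelled as biological. The control they share means that p-values and SDs measure the spread between libraries that are not wholly independent.

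Gene models were those of Ensembl release 115 on 6 arms, with transposable elements left out, and sequence came from a RefSeq assembly whose arms match dm6 in length. Summits were placed in classes in a fixed order: within 250 bp of a TSS, other exons, non-exonic to 1000 bp, intergenic, and introns to and beyond 5000 bp. Overlap meant at least 1 shared bp. A member's rank in a replicate was the best rank of the replicate peaks that overlap its interval, so summits of 1 interval share ranks. Each replicate measurement used the 7769 peaks of highest signal, and differences or ratios within replicates were tested with a 2-sided exact permutation test. Named members were the 25 of highest signal in the IDR list, the 5 host genes with most members (a tie at the fifth place named all tied genes) and the strongest member of each gene list, and every searched motif had its share computed. Of 355 list symbols, 350 were found. The members, lists, motifs and comparisons were chosen with earlier results of these data known. The split by replicate ranks and the sequence AGGGTAT were added later, after the values were seen. Alternatives were another strength limit, other distance limits and gene models, 1 summit per interval, weaker peaks and other windows. Each replicate was also set aside by asking IDR peaks to overlap the top lists of both other replicates only. The summit sequence of 1 strong member is not reported here. Classification, density, overlap and motif code was tested on simulated data. Python 3.11.15, NumPy 2.4.6, pandas 2.3.3, SciPy 1.17.1 and matplotlib 3.10.9 were used.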

Additional observations from a re-analysis of the deposited data

How the results depend on the processing

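Of 46 alternative values, 23 moved by less than 1 SD over replicates, 23 by more, and none changed direction. The member share and the support are percentages that could not change direction, so only the density ratios and the A and T excess could. The member share, 20.1%, was 22.5% in pooled peaks outside the IDR list, 19.4% with protein-coding gene models only, 27.9% at 1 to 10 kb, 27.4% at 500 to 5000 bp and 11.5% at 2 to 5 kb, where the rule itself takes in more or less sequence. The density ratio to deep introns, 2.04, was 2.23 in the strongest 3884 peaks of the IDR list, 1.67 in pooled peaks outside it and 1.95 without transposable elements, a choice added after seeing the data. The density ratio of first introns, 2.02, was 2.06 in those 3884 peaks, 1.64 in pooled peaks outside the list and 2.43 at 1 to 2 kb, also added. Support in every replicate, 71.7%, was 97.4% in those 3884 peaks, 63.0% when summits had to lie within 100 bp and 97.6% with the full lists. The A and T excess, 10.3 points, was 12.3 in those 3884 peaks, 3.67 in pooled peaks outside the list and 8.13 in windows of 100 bp to either side. The cause of these shifts was not tested, except where the rule or the longer list sets them. Each replicate was set aside in turn by keeping the IDR peaks that overlapped the top lists of both other replicates. This kept 5725, 5866 and 6310 peaks without replicates 1, 2 and 3, from an IDR list that still rested on all 3 libraries. The kept peaks gave 20.3 to 20.8% for the member share and 2.11 to 2.15 for the ratio to deep introns. They gave 2.01 to 2.05 for first introns and 10.2 to 10.9 points for A and T. Support of all members in both other replicates, which asks for fewer overlaps, was 74.4 to 82.1%. RefSeq gene models gave the same 1563 members. No comparison between groups was possible because the 3 libraries form 1 group, and the permutation tests used differences or ratios within each replicate. With 3 replicates no p below 0.25 can arise, the read depth of the libraries is unknown, and a peak list cannot tell a weak site from an absent one.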

Other observations

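Weaker peaks at the same kind of position were more numerous than the members. Among pooled peaks that overlap no IDR peak, 4526 had a summit at positions that meet the same rule, or 225 per Mb, and their density in first introns was 272.95 per Mb against 166.3 per Mb in the remaining sequence. Their density was 248.9 per Mb at 1 to 2 kb and 194.3 per Mb at 4 to 5 kb.

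Soft-masked sequence, which includes simple repeats beside transposable elements, held 394 members at 97.9 per Mb, while annotated transposable elements held 19.4 per Mb. AGGGTAT was spread over about 100 bp to either side of the members' summits and was not centred sharply on them. In 51 bp windows it stood in 3.77% at the summit, 3.65% at 50 bp before it, 3.71% at 50 bp after it, 3.007% and 3.20% at 100 bp on the 2 sides, and 0.448% and 0.384% at 500 bp. Of the members that hold it and have a peak in both lists, 80.2% of 126 ranked better in replicate 3 than in replicate 2, against 43.6% of 1407 members without it. These values are descriptions of a sequence and a split that were both chosen on these peaks.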
